A study of Mus musculus with 18 samples.

Results

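The genes described here are the IL-1 family cytokines with their decoys and receptors: the ligands *Il1a*, *Il1b*, *Il18* and *Il33*, the inhibitors *Il1rn*, *Il1r2* and *Il18bp*, and the receptor chains *Il1r1*, *Il1rap* and *Il1rl1*. These 10 genes were taken by symbol from the Ensembl gene identifiers of the count files, which list 55029 genes for 12 of the libraries and 54232 for the 6 of the IL-4 experiment. A gene had to pass a filter on low counts to be tested, and 9 of the 10 passed in both of these sets of libraries. *Il1r1* did not pass in either.

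The study measured RNA of mouse eosinophils after activation in culture. All cells came from the peritoneum of C57BL/6 NJ.1638 mice, which carry an *Il5* transgene, so every group, the unstimulated ones included, is of cells raised under excess IL-5. They were enriched by negative selection with beads against Thy1.2 and B220 and used at a purity over 95% by flow cytometry. Cells were kept for 18 h in DMEM with fetal calf serum, either unstimulated or with a stimulus. One set of 12 libraries, the first set below, holds unstimulated cells (libraries a, b and c), cells with heat-inactivated E. coli, cells with IFN-γ at 50 ng/ml, and cells with IFN-γ and E. coli together. Another set of 6 libraries, the IL-4 set, holds its own unstimulated cells (libraries d, e and f) and cells with IL-4 at 100 ng/ml. Each group has 3 libraries, and the age and sex of the mice are not given. The study calls the 3 libraries of a group biological replicates. Whether they come from separate animals or from separate cultures of the same cells is not stated, so every p-value here measures the spread between these libraries.

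As background, IL-1α, IL-1β, IL-18 and IL-33 are alarm cytokines whose receptors signal through MyD88 to NF-κB. The family carries its own brakes: the antagonist encoded by *Il1rn* occupies the IL-1 receptor without signalling, the decoy receptor encoded by *Il1r2* binds IL-1 without a signalling domain, and the binding protein encoded by *Il18bp* captures IL-18. Eosinophils are known to carry ST2, the IL-33 receptor encoded by *Il1rl1*, and IL-33 is known as an activator of these cells.

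The deposited values are counts per gene. Library totals on genes ran from 1523808 to 2734041 in the first set and from 3625036 to 6482289 in the IL-4 set. A floor of 3 counts corresponds to 1.10 to 1.97 CPM (counts scaled to 1000000 per library) in the first set and to 0.463 to 0.828 CPM in the IL-4 set, and covers counting error only. Levels below are CPM after TMM scaling, a correction for library composition, within each set. A gene is called different where edgeR's quasi-likelihood test gave a Benjamini-Hochberg adjusted p under 0.05 over all genes tested. An alternative that also requires a change by a factor of 2 drops every call under 1 on the log2 scale, and is not named at each one. Fold changes are on the log2 scale, with approximate standard errors (SE), and an exact permutation test of 3 libraries against 3 could not go below p = 0.1.

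The sets differ in the range of their counts. In all 12 libraries of the first set the highest count of any gene lay between 4089 and 4095, just under 4096, the number of different identifiers of 6 bases. In the IL-4 set the highest counts were 87377 to 191131. Counts near such a ceiling are compressed, and of the members *Il1rn* stood closest to it, at 2046 to 3707 counts, or 49.95% to 90.5% of 4096. An alternative chosen after seeing the data replaced each count of the 12 libraries by the number of molecules that would fill that many of the identifiers at random. It is given below as the ceiling-corrected value wherever it changes a call, or moves a called change by over 1.5 times. The labels name both a CEL-Seq library and an RNA-seq experiment on different instruments without saying which set is which, so levels are never compared between the sets here.

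**Figure D1:**
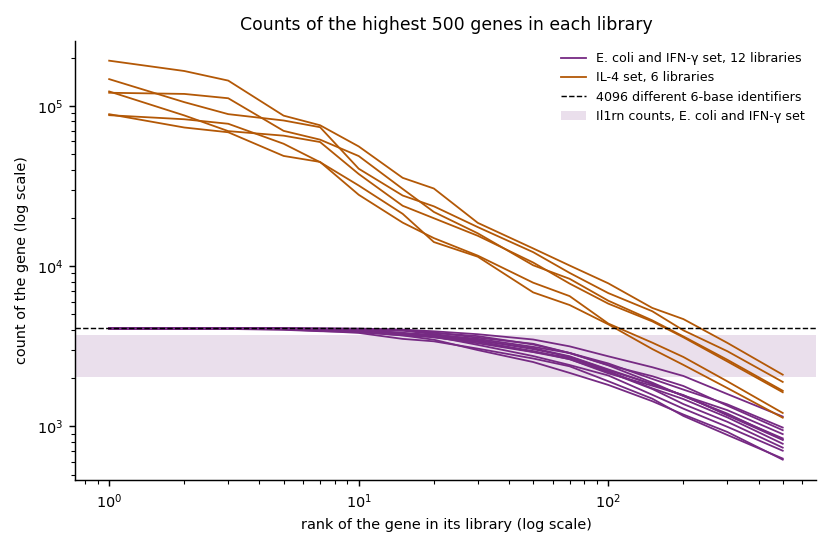
Each line gives the counts of the 500 highest genes of 1 library by rank, both axes on a log scale, with the range of *Il1rn* counts in the first set shaded. The 12 libraries of the first set (E. coli and IFN-γ) flatten just below the dashed line at 4096, and the 6 of the IL-4 set rise past it.

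The eosinophil label was checked against 10 marker genes. *Ccr3*, the eotaxin receptor, had 1196 to 1779 CPM in the first set, and *Alox15* had 2337 to 2455 CPM in the IL-4 set. *Siglecf* averaged 1020 ± 127 CPM in unstimulated cells a to c, 636 ± 20.1 CPM with E. coli, 626 ± 81.9 CPM with IFN-γ and 348 ± 24.8 CPM with both (SD, n = 3). Granule genes differed. *Prg2* had 19 to 72 counts in the libraries of the first set, averaging 29.5 CPM in unstimulated cells a to c, 25.9 CPM with E. coli, 16.4 CPM with IFN-γ and 13.4 CPM with both. *Ear6* averaged 36.7 CPM in unstimulated cells, 87.5 CPM with E. coli, 18.7 CPM with IFN-γ and 51.4 CPM with both. Within the IL-4 set *Ear6* averaged 138 CPM in cells d to f and 348 CPM with IL-4. *Prg3* had at most 3 counts in any of the 12 libraries of the first set, and *Epx*, the eosinophil peroxidase, had at most 4. Summed over the list, the markers gave 3842, 5139 and 3990 CPM in unstimulated cells a to c, 3519, 3117 and 3533 CPM with E. coli, 4071, 3605 and 4446 CPM with IFN-γ, and 3275, 2893 and 3125 CPM with both. The sum was below all unstimulated libraries with E. coli and with both. Its main parts stood near the ceiling, *Ccr3* at 2258 to 3576 counts and *Alox15* at 1519 to 3732. With ceiling-corrected counts the sum was 6022, 6558 and 5784 CPM in unstimulated cells, 4883, 4593 and 4157 CPM with E. coli, 5026, 4380 and 5318 CPM with IFN-γ, and 3368, 3134 and 3223 CPM with both, and so lay below all unstimulated libraries with IFN-γ too. In the IL-4 set it was 5173, 6002 and 5293 CPM without IL-4 and 5031, 5234 and 5104 CPM with it. Of 6 markers tested in the first set, 1 was called higher and 2 lower with E. coli (median -0.28), 0 and 4 with IFN-γ (median -0.54), and 1 and 4 with both (median -0.86). Ceiling-corrected counts added *Alox15* to those lower, at -0.63 (adjusted p 4.66e-04) with E. coli and -0.37 (adjusted p 0.0221) with IFN-γ, where the deposited counts gave -0.37 and 0.01. Of 10 tested with IL-4, 4 were higher and 1 lower (median 0.31), the last *Ccr3*, which averaged 2149 CPM in cells d to f and 1301 CPM with IL-4.

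Other cell types were represented as well. All 11 macrophage markers were above 3 counts in at least 1 library, with *Csf1r* the most abundant in the first set at 353 to 488 CPM. Their sum was 1128, 1008 and 1106 CPM in unstimulated cells, 716, 653 and 1051 CPM with E. coli, 1579, 1509 and 1497 CPM with IFN-γ, and 1330, 1504 and 1697 CPM with both. The sum was thus above the unstimulated range in every library with IFN-γ. In the IL-4 set it was 2258, 2564 and 2866 CPM in unstimulated cells and 1914, 1834 and 2109 CPM with IL-4, where *C1qc* was the most abundant. The genes of the list did not move alike: with E. coli 0 were called higher and 5 lower (median -0.53), with IFN-γ 3 and 1 (median 0.15; *Gata6*, the lower one, was not called with ceiling-corrected counts), with both 3 and 2 (median 0.06), and with IL-4 0 and 5 (median -0.29). *Marco* averaged 163 CPM in unstimulated cells a to c and 334 CPM with IFN-γ, while *Gata6* averaged 4.92 and 1.51 CPM. With IL-4, *Timd4*, *Icam2* and *Gata6* averaged 88.4, 56.2 and 16.6 CPM against 61.3, 41.3 and 10.8 CPM, opposite to the sum, though none of these was called. *Marco* went the way of the sum, averaging 195 CPM in cells d to f and 28.6 CPM with IL-4. These genes were chosen after their values were seen. Counts of calls in the marker lists are to be read beside those of all genes. These were 30.2% with E. coli, 31.6% with IFN-γ, 49.0% with both and 10.3% with IL-4. The sum of macrophage markers thus differed between groups, while calls of single genes went both ways with both stimuli. With IFN-γ they did so in the deposited counts alone. The part of macrophage transcripts in the results on the ligands and inhibitors was not tested. In bulk samples such as these, fewer cells of a type and less RNA per cell cannot be told apart.

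B cell markers moved too: all 6 exceeded 3 counts, led by *Ighm*, and their sum was 217, 196 and 117 CPM in unstimulated cells a to c against 40.8, 44.5 and 76.5 CPM with E. coli. It was 100.2, 61.5 and 58.2 CPM with IFN-γ and 121, 134 and 128 CPM with both. With IL-4 it was 64.3, 58.7 and 71.8 CPM against 25.0, 23.7 and 43.4 CPM. B220 beads were part of the selection, and the part of these transcripts in the results was not tested. T cell markers summed to no more than 8.94 CPM in any library, with *Cd3e*, *Cd3g*, *Cd4*, *Cd8a* and *Thy1* at or under 3 counts throughout. Markers of NK cells and innate lymphoid cells summed to at most 17.9 CPM, those of dendritic cells to at most 17.9 CPM and those of mesothelial and stromal cells to at most 23.9 CPM. Basophil markers summed to 24.2 to 55.5 CPM in the first set, nearly all of it *Cd200r3*, with *Mcpt8* and *Prss34* at or under 3 counts.

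Against unstimulated cells, E. coli changed 6 of the 9 members tested, 5 higher and 1 lower, where 30.2% of all genes tested were called. IFN-γ changed 7 of 9, 6 higher and 1 lower, against 31.6% of all genes. Both stimuli together changed 7 of 9, 6 higher and 1 lower, against 49.0% of all genes. IL-4 changed 3 of 9, all higher, against 10.3% of all genes. The median change of the members was 0.32 with E. coli (0.86 with ceiling-corrected counts), 1.02 with IFN-γ, 2.23 with both and 0.44 with IL-4, where the median of all genes tested was -0.02, -0.03, -0.04 and 0.00. *Il33* was at or under the floor in unstimulated cells a to c and so could only enter the test by being high in a stimulated group. It is included among the members called higher in the first 3 comparisons. The first 3 comparisons share libraries a to c.

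Between stimuli, both together differed from IFN-γ alone in 3 of 9 members, all higher, against 12.2% of all genes. Both together differed from E. coli alone in 8 of 9, 6 higher and 2 lower, against 32.8%. E. coli differed from IFN-γ in 6 of 9, 4 higher and 2 lower, against 25.5%. The interaction asks whether the effect of both departs from the sum of the separate log2 effects, and was called for 1 of 9 members, lower than the sum, against 4.62% of all genes. The response to IL-4, measured against cells d to f, was compared with each response measured against cells a to c. It differed from the E. coli response in 7 of 9 members, 2 higher and 5 lower, against 28.1% of all genes. It differed from the IFN-γ response in 5 of 9, 1 higher and 4 lower, against 27.8%. From the response to both it differed in 6 of 9, 1 higher and 5 lower, against 39.2%. *Il33* is among the members lower in each of these, at -4.40, -4.10 and -6.14. Those values rest on its single count in unstimulated cells a to c. These last 3 comparisons combine sets whose counts may be in different units, and the sets and the stimuli cannot be told apart in them beyond the correction by each set's own unstimulated cells.

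**Figure D2:**
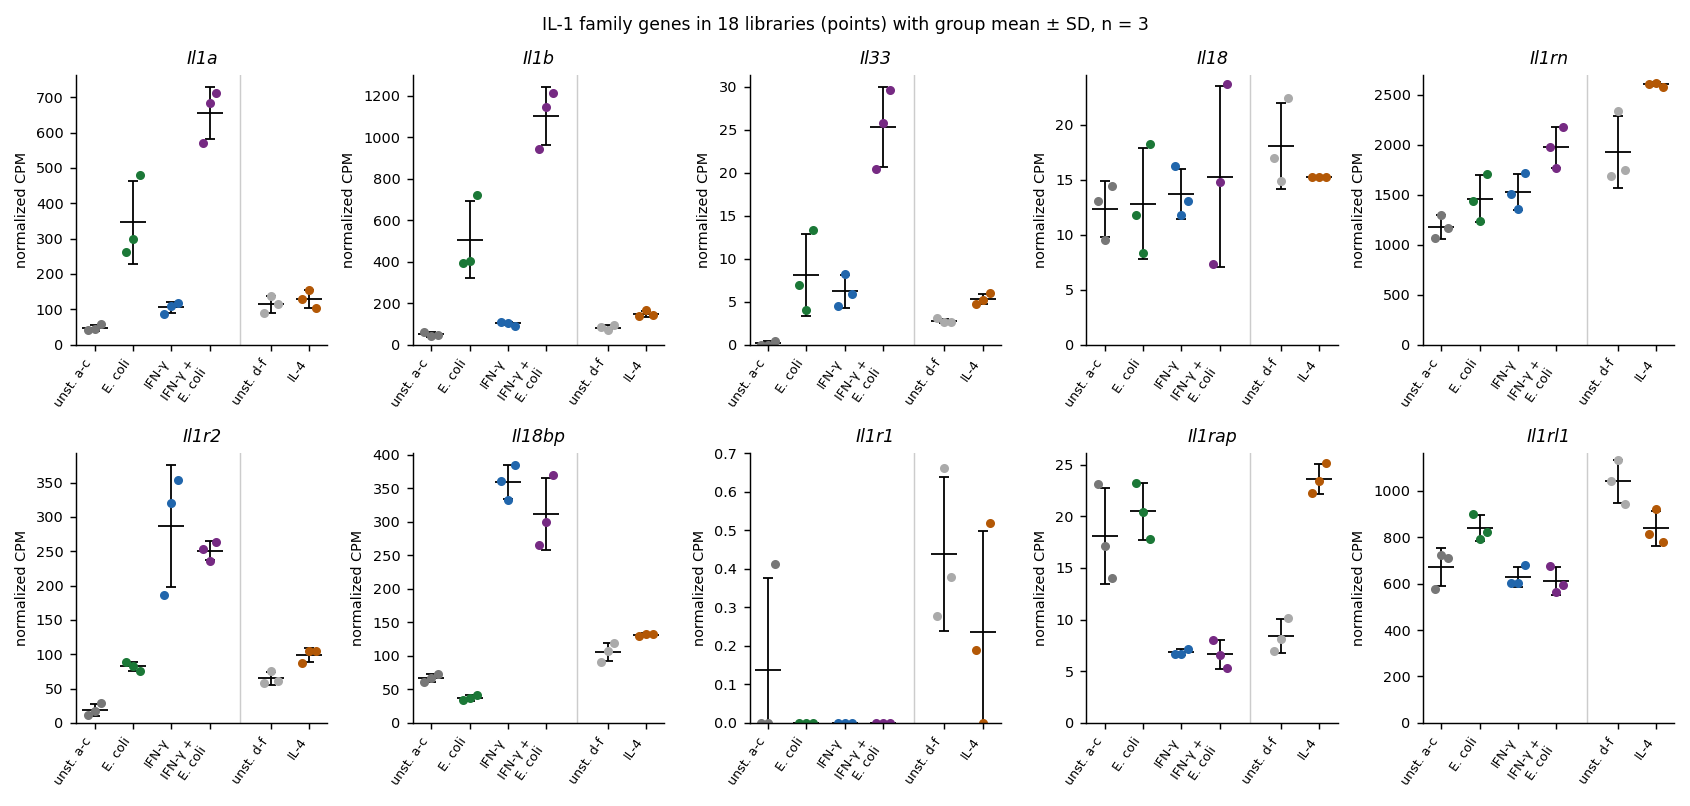
Each point is the TMM-scaled CPM of a member in 1 library, on a linear axis from 0 with its own scale per gene, for the 6 groups; bars give the group mean and SD (n = 3), and a grey line parts the sets. *Il1a*, *Il1b* and *Il33* stand highest with IFN-γ and E. coli together. In the first set *Il1r2* and *Il18bp* stand highest with IFN-γ, alone or with E. coli. *Il1rap* falls with IFN-γ and rises with IL-4.

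*Il1a* encodes IL-1α, a ligand that is active without cleavage and released by injured cells. Its levels were 40.2, 43.7 and 57.8 CPM in unstimulated cells a to c, 87.9, 109 and 119 CPM with IFN-γ, 262, 298 and 480.4 CPM with E. coli, and 572, 684 and 712 CPM with both. The 4 groups did not overlap and stood in that order, and E. coli library 3 was the highest of its group. The mean was 47.3 ± 9.31 CPM (SD, n = 3) in unstimulated cells and 656 ± 74.0 CPM with both stimuli. The change was 2.86 (SE 0.208, adjusted p 9.38e-09) with E. coli, 1.15 (SE 0.217, adjusted p 4.81e-04) with IFN-γ and 3.79 (SE 0.212, adjusted p 5.37e-11) with both. Each neighbouring pair in the order differed: E. coli exceeded IFN-γ by 1.72 (adjusted p 1.58e-06), and both exceeded E. coli by 0.92 (adjusted p 5.65e-04).

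With IL-4, *Il1a* had 129, 156 and 103 CPM against 89.4, 137 and 115 CPM in cells d to f. These groups overlapped, and the change of 0.18 (SE 0.188, adjusted p 0.592) was not called. As a response it was lower than that to IFN-γ by edgeR's test of the difference, at -1.002 (SE 0.311, adjusted p 0.0194). That call was lost without unstimulated a (adjusted p 0.0684), without IFN-γ 3 (0.0540), without IL-4 3 (0.0510) and with scaling to library totals alone (0.0735). The difference there was -0.88, -0.91, -0.87 and -0.72, and over its alternatives the adjusted p ran from 1.20e-04 to 0.0735.

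*Il1b* encodes IL-1β, which is made as a precursor that caspase-1 cleaves. Its levels were 62.6, 39.3 and 47.1 CPM in unstimulated cells a to c, 108, 107 and 91.6 CPM with IFN-γ, 396, 403 and 723 CPM with E. coli, and 945, 1148 and 1215 CPM with both. The order of the groups was that of *Il1a*, again with no overlap and with E. coli library 3 the highest of its group. The change was 3.32 (SE 0.220, adjusted p 2.42e-09) with E. coli, 1.02 (SE 0.228, adjusted p 0.00210) with IFN-γ and 4.45 (SE 0.226, adjusted p 1.45e-11) with both. E. coli exceeded IFN-γ by 2.31 (adjusted p 7.69e-08), and both exceeded E. coli by 1.12 (adjusted p 1.30e-04). For both ligands the interaction was not called, at -0.22 for *Il1a* (SE 0.280, adjusted p 0.765) and 0.11 for *Il1b* (SE 0.297, adjusted p 0.910).

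*Il1b* also rose with IL-4, at 136, 166 and 144 CPM against 84.7, 68.3 and 92.3 CPM in cells d to f. The groups did not overlap, and the change was 0.87 (SE 0.149, adjusted p 0.00467). Against the E. coli response this was lower by -2.48 (SE 0.286, adjusted p 1.23e-06), while against the IFN-γ response the difference of -0.19 (SE 0.293, adjusted p 0.681) was not called.

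*Il33* encodes IL-33, a nuclear alarmin best known from barrier cells. In unstimulated cells a to c it had 0, 0 and 1 counts. It had 6.94, 4.01 and 13.3 CPM with E. coli, 4.48, 8.20 and 5.89 CPM with IFN-γ, and 20.5, 25.8 and 29.7 CPM with both. Cells with E. coli and with IFN-γ overlapped each other, while both together lay above either and all stimulated libraries lay above all unstimulated ones. Summed over libraries and scaled by depth, the 56 counts with E. coli were 50.1-fold the unstimulated level (95% exact counting interval 8.63 to 2014). The 33 counts with IFN-γ were 41.9-fold that level (7.01 to 1703), and the 120 counts with both were 170.2-fold (29.98 to 6780). These intervals cover counting error only, and the folds rest on the single count of unstimulated c, without which none can be given. Without unstimulated a, a check added after seeing the data, they were 29.99, 25.1 and 101.9. Both exceeded E. coli alone by 1.71 (SE 0.337, adjusted p 6.25e-04) and IFN-γ alone by 2.01 (SE 0.369, adjusted p 0.00118).

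The difference in *Il33* between E. coli and IFN-γ was 0.30 (SE 0.415, adjusted p 0.648). Its interaction was not called (adjusted p 0.0972), and rests on the single unstimulated count. It was called with no filter on low counts (0.0174) and without E. coli 2 (0.0464), in a range over the alternatives of 0.0174 to 0.317. In the IL-4 set *Il33* was measurable in unstimulated cells, at 3.06, 2.65 and 2.64 CPM, and had 4.76, 5.15 and 5.96 CPM with IL-4. All 3 libraries with IL-4 lay above all 3 without, yet the change of 0.92 (SE 0.339, adjusted p 0.119) was not called.

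*Il18* encodes IL-18, another caspase-1 substrate, which many cells store as a precursor. It ranged from 7.30 to 23.7 CPM over the 12 libraries of the first set, and each stimulated group overlapped the unstimulated libraries at 13.04, 9.51 and 14.5 CPM. It was not called in any of the 11 comparisons. With IL-4 it had 15.2, 15.3 and 15.3 CPM, within the range of 14.9 to 22.5 CPM in cells d to f. The ligands thus differed among themselves: *Il1a* and *Il1b* rose with each of the stimuli of the first set, and no change of *Il18* was detectable at this depth. *Il33* lay higher in all stimulated libraries of that set, but could be tested only because of them.

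*Il1rn* encodes the IL-1 receptor antagonist. Its levels were 1063, 1297 and 1168 CPM in unstimulated cells a to c, 1434, 1239 and 1705 CPM with E. coli, 1503, 1357 and 1711 CPM with IFN-γ, and 1979, 1764 and 2175 CPM with both. Cells with E. coli overlapped the unstimulated ones through E. coli 2, cells with IFN-γ lay above them, and both together lay above all other libraries. The change was 0.31 (SE 0.136, adjusted p 0.0914) with E. coli, 0.37 (SE 0.136, adjusted p 0.0434) with IFN-γ and 0.75 (SE 0.137, adjusted p 1.75e-04) with both. E. coli and IFN-γ did not differ beyond their spread, at -0.06 (SE 0.136, adjusted p 0.781).

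The ceiling bears on *Il1rn* most where its counts were highest, at 3515, 3707 and 3454 with E. coli. With ceiling-corrected counts its mean was 1422 ± 71.8 CPM in unstimulated cells, 1884 ± 219 CPM with IFN-γ, 2585 ± 242 CPM with E. coli and 2859 ± 485 CPM with both (SD, n = 3). The change with E. coli then was 0.86 (adjusted p 4.82e-05) and was called, and over the alternatives of that result the adjusted p ran from 4.82e-05 to 0.338. E. coli then exceeded IFN-γ by 0.46 (adjusted p 0.0119, range 0.0119 to 0.930), and both no longer exceeded E. coli, at 0.15 (adjusted p 0.414). As deposited, both exceeded E. coli by 0.43 (adjusted p 0.0193), a call also lost without E. coli 1 (0.0687), E. coli 2 (0.114) or IFN-γ + E. coli 3 (0.0836) and with library totals alone (0.120), at 0.42, 0.33, 0.35 and 0.21, in a range of 6.85e-04 to 0.414. Corrected, both exceeded IFN-γ by 0.60 (adjusted p 0.00389), where the deposited counts gave 0.37 (adjusted p 0.0840, range 0.00389 to 0.301).

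Some calls for *Il1rn* stood close to the threshold. That with E. coli was gained without unstimulated b (adjusted p 0.0416), without E. coli 2 (0.0402), with no filter on low counts (0.0310) and with library totals alone (0.0423), at 0.41, 0.43, 0.35 and 0.29. The call with IFN-γ was lost without unstimulated a (0.159), unstimulated c (0.0912), E. coli 1 (0.0558), IFN-γ 1 (0.0797) or IFN-γ 3 (0.160), and with library totals alone (0.143), in a range of 0.00905 to 0.160. Its size there was 0.31, 0.37, 0.38, 0.39, 0.30 and 0.20, where the main fit gave 0.37, so the losses without c, E. coli 1 or IFN-γ 1 came with no smaller change. The rise with both stimuli was called in all 19 alternatives with a fit of their own, at 0.50 to 1.01 (adjusted p 1.69e-08 to 0.00181), and not where a factor of 2 was required.

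With IL-4, *Il1rn* had 2608, 2618 and 2580 CPM against 1689, 2337 and 1748 CPM in cells d to f, where library e stood apart from d and f. The groups did not overlap, and the change of 0.44 (SE 0.134, adjusted p 0.0664) was not called. It was called without library e, at 0.60 (adjusted p 1.16e-04), with DESeq2 (0.0423), with library totals alone (0.0213) and with no filter on low counts (0.0284), in a range of 1.16e-04 to 0.201. The response of *Il1rn* to IL-4 was not called different from that to both stimuli, at -0.37 (SE 0.199, adjusted p 0.148), but was called lower with ceiling-corrected counts, at -0.56 (adjusted p 0.0204, range 0.0204 to 0.994).

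*Il1r2* encodes the IL-1 decoy receptor. Its levels were 11.6, 17.1 and 28.9 CPM in unstimulated cells a to c, 88.5, 82.9 and 76.0 CPM with E. coli, 186, 320.4 and 353 CPM with IFN-γ, and 253, 236 and 264 CPM with both. Unstimulated cells were lowest and cells with E. coli next, with no overlap, while both together fell inside the range of IFN-γ alone, whose library 1 was the lowest of its group. The mean was 19.2 ± 8.86 CPM in unstimulated cells and 287 ± 88.3 CPM with IFN-γ (SD, n = 3). The change was 2.102 (SE 0.262, adjusted p 6.38e-06) with E. coli, 3.89 (SE 0.252, adjusted p 1.10e-09) with IFN-γ and 3.70 (SE 0.254, adjusted p 8.66e-10) with both. Both did not differ from IFN-γ beyond their spread, at -0.19 (SE 0.199, adjusted p 0.617), and exceeded E. coli by 1.60 (SE 0.211, adjusted p 8.63e-06).

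*Il1r2* was the member whose interaction was called. The effect of both stimuli fell short of the sum of the separate effects by -2.29 (SE 0.331, adjusted p 5.11e-04), and it was called in all 18 alternatives with a fit of their own, at -2.78 to -1.99. With IL-4 its levels were 86.9, 105 and 105 CPM against 58.3, 75.2 and 60.8 CPM in cells d to f, with no overlap. The change of 0.61 (SE 0.149, adjusted p 0.0286) was lost without d (0.0655), f (0.0945), IL-4 1 (0.0516), IL-4 2 (0.139) or IL-4 3 (0.116), in a range of 0.00171 to 0.139. It kept its direction in these fits, at 0.53, 0.55, 0.70, 0.55 and 0.55.

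Neutrophils are known for high *Il1r2*, so their markers are given beside it. Of 7, *Ngp* and *Ltf* were at or under 3 counts in all of the first set, and the most abundant was *Retnlg* at 275 to 676 CPM. The sum was 558, 687 and 549.7 CPM in unstimulated cells, 353, 341 and 403 CPM with E. coli, 680.1, 625 and 735 CPM with IFN-γ, and 330.1, 396 and 425 CPM with both. It was 1995, 1944 and 1676 CPM in cells d to f and 779, 809 and 727 CPM with IL-4. The sum, to which *Retnlg* gave the most, fell with IL-4, with both and with E. coli, groups in which *Il1r2* rose, and overlapped the unstimulated range with IFN-γ. Other genes of the list moved otherwise in the first set. *Ly6g* averaged 4.12 CPM in unstimulated cells, 3.41 CPM with E. coli, 21.7 CPM with IFN-γ and 13.9 CPM with both. *S100a8* averaged 8.58 CPM in unstimulated cells, 72.1 CPM with E. coli, 39.2 CPM with IFN-γ and 55.1 CPM with both. Of 3 genes tested, 1 was called higher and 1 lower with E. coli, 2 higher and 0 lower with IFN-γ, and 2 higher and 1 lower with both; with IL-4, 0 of 4 were higher and 1 lower. The part of neutrophil transcripts in the result was not tested.

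*Il18bp* encodes the soluble IL-18 binding protein, known as a gene that IFN-γ induces. Its levels were 61.1, 66.6 and 72.7 CPM in unstimulated cells a to c, 33.5, 37.1 and 41.0 CPM with E. coli, 361, 333 and 385 CPM with IFN-γ, and 266, 299.7 and 371 CPM with both. Cells with E. coli were lowest and unstimulated cells next, with no overlap, and both together overlapped IFN-γ alone. The change was -0.85 (SE 0.149, adjusted p 2.60e-04) with E. coli, 2.43 (SE 0.134, adjusted p 1.06e-10) with IFN-γ and 2.23 (SE 0.134, adjusted p 1.47e-10) with both. E. coli and IFN-γ thus moved this inhibitor in opposite directions, with a difference of -3.27 (SE 0.141, adjusted p 3.78e-12). Both did not differ from IFN-γ beyond their spread, at -0.20 (SE 0.122, adjusted p 0.326).

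The interaction for *Il18bp* was 0.65 (SE 0.193, adjusted p 0.0647) and was called only without IFN-γ + E. coli 1 (0.0400), in a range of 0.04 to 0.196. With IL-4 it had 129, 133 and 133 CPM against 91.1, 107 and 119 CPM in cells d to f. The groups did not overlap, but the change of 0.31 (SE 0.132, adjusted p 0.173) was not called. Exons of *Il18bp* overlap those of *Numa1* on the opposite strand, which had at most 209 counts in a library. The strand setting of the counting is not given.

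*Il1r1* encodes the signalling IL-1 receptor. It had 1 count in all of the first set, in unstimulated c, and 1, 4 and 2 counts in cells d to f and 1, 0 and 2 counts with IL-4. It was thus at or near the floor in all 18 libraries, and no change can be given for it.

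*Il1rap* encodes the accessory chain that the receptors for IL-1 and IL-33 share. Its levels were 23.1, 17.1 and 14.04 CPM in unstimulated cells a to c, 23.3, 20.4 and 17.8 CPM with E. coli, 6.72, 6.66 and 7.19 CPM with IFN-γ, and 8.03, 6.58 and 5.28 CPM with both. Unstimulated cells and cells with E. coli overlapped, as did the 2 groups with IFN-γ, which lay below them. The change was 0.17 (SE 0.214, adjusted p 0.594) with E. coli, -1.41 (SE 0.270, adjusted p 5.49e-04) with IFN-γ and -1.46 (SE 0.279, adjusted p 2.65e-04) with both. E. coli exceeded IFN-γ by 1.58 (SE 0.263, adjusted p 1.42e-04).

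IL-4 moved *Il1rap* the other way. It had 22.3, 23.4 and 25.1 CPM with IL-4 against 6.94, 8.12 and 10.2 CPM in cells d to f, with no overlap. The change was 1.47 (SE 0.207, adjusted p 0.00173), and the response exceeded that to IFN-γ by 2.84 (SE 0.325, adjusted p 1.05e-06), that to both by 2.87 (SE 0.331, adjusted p 5.64e-07) and that to E. coli by 1.28 (SE 0.290, adjusted p 0.00205).

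*Il1rl1* encodes ST2, whose membrane form receives IL-33 and whose soluble form acts as a decoy. Gene counts do not separate these forms. Its levels were 578, 725 and 711 CPM in unstimulated cells a to c, 902, 792 and 823 CPM with E. coli, 603, 602 and 679 CPM with IFN-γ, and 678, 563 and 594 CPM with both. Cells with E. coli lay above all others, and the remaining 3 groups overlapped. The change was 0.32 (SE 0.117, adjusted p 0.0435) with E. coli, -0.10 (SE 0.118, adjusted p 0.577) with IFN-γ and -0.13 (SE 0.118, adjusted p 0.365) with both.

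The call of *Il1rl1* with E. coli was lost without unstimulated a (adjusted p 0.206), unstimulated c (0.0502), E. coli 1 (0.160), E. coli 2 (0.0542), E. coli 3 (0.0618) or IFN-γ 1 (0.0519), and in a fit of the compared groups alone (0.0509), in a range of 0.00386 to 0.206. The change was smaller without unstimulated a (0.23) and E. coli 1 (0.27) and no smaller in the others, at 0.37, 0.37, 0.34, 0.33 and 0.35. That of E. coli over IFN-γ, at 0.42 (adjusted p 0.0122), was lost without E. coli 1 (0.0712), IFN-γ 1 (0.0551) or IFN-γ 2 (0.0667), at 0.36, 0.39 and 0.38, in a range of 2.70e-04 to 0.0712. Both lay below E. coli by -0.46 (SE 0.118, adjusted p 0.00569), a call kept in all 20 alternatives with a fit of their own and lost where a factor of 2 was required. Under library totals alone, which moved the median of all genes by -0.21 with IFN-γ and by -0.29 with both, *Il1rl1* was called lower with IFN-γ, at -0.27 (adjusted p 0.0426, range 0.0426 to 0.959), and with both, at -0.38 (adjusted p 0.00353, range 0.00353 to 0.727).

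*Il1rl1* reached 57.8% of 4096 with E. coli. With ceiling-corrected counts the change with E. coli was 0.49 (adjusted p 0.00386), E. coli exceeded IFN-γ by 0.67 (adjusted p 3.25e-04), and both lay below E. coli by -0.73 (adjusted p 1.09e-04, range 3.61e-05 to 0.0372).

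With IL-4, *Il1rl1* had 815, 920.3 and 777 CPM against 1043, 1133 and 945 CPM in cells d to f. All libraries with IL-4 lay below all without, and the change of -0.31 (SE 0.118, adjusted p 0.130) was not called. The response lay below that to E. coli by -0.65 (SE 0.169, adjusted p 0.00584).

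Mast cells and basophils also carry ST2. Of 7 mast cell markers, *Mcpt4* and *Mrgprb2* were at or under 3 counts in all of the first set, and the most abundant was *Tpsb2* at 3.17 to 29.0 CPM. The sum was 10.8, 8.24 and 7.85 CPM in unstimulated cells, 10.6, 8.03 and 35.6 CPM with E. coli, 33.0, 15.9 and 15.04 CPM with IFN-γ, and 40.2, 80.5 and 73.2 CPM with both. In the IL-4 set it was 9.72, 6.63 and 7.17 CPM without IL-4 and 17.7, 7.81 and 23.3 CPM with it. It was highest with both stimuli, where *Il1rl1* was not, and *Il33* was also highest there. Of 2 mast cell genes tested in the first set, 0 were called with E. coli, 1 was called higher with IFN-γ and 2 with both. With IL-4, 0 of 2 were called. Basophil markers summed to 28.3, 20.2 and 18.7 CPM in cells d to f and 13.7, 13.6 and 8.04 CPM with IL-4, lower without overlap, as was *Il1rl1*. Of these 4 genes *Cd200r3* alone was tested there, at -0.91 (SE 0.259, adjusted p 0.04996), and *Mcpt8*, *Prss34* and *Fcer1a* were at or under 3 counts. The part of either cell type in the results was not tested.

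Agonists and their inhibitors were compared by the log2 ratio of their CPM in each library, with a prior count of 2. Only the movement of a ratio between groups is read, since levels of different genes were not put on a scale per length. The ratio of *Il1a* to *Il1rn* was -4.69, -4.86 and -4.31 in unstimulated cells a to c, -2.45, -2.05 and -1.83 with E. coli, -4.08, -3.62 and -3.83 with IFN-γ, and -1.79, -1.37 and -1.61 with both. Every stimulated library lay above every unstimulated one. The mean ratio moved by 2.51 with E. coli (2.09 with ceiling-corrected counts), by 0.77 with IFN-γ and by 3.03 with both (2.99 corrected).

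The ratio of *Il1b* to *Il1rn* was -4.06, -5.01 and -4.60 in unstimulated cells, -1.85, -1.62 and -1.24 with E. coli, -3.79, -3.66 and -4.21 with IFN-γ, and -1.07, -0.62 and -0.84 with both. It moved by 2.99 with E. coli and 3.72 with both, without overlap, and by 0.68 with IFN-γ, where IFN-γ 3 fell inside the unstimulated range and the move was 0.45 without unstimulated b. With IL-4 the ratio of *Il1a* was -4.34, -4.07 and -4.65 against -4.23, -4.09 and -3.92 in cells d to f, and that of *Il1b* was -4.26, -3.98 and -4.16 against -4.31, -5.09 and -4.24. Both overlapped cells d to f, with 2 of 3 libraries below their range for *Il1a* (-0.27 in the mean) and 2 of 3 above it for *Il1b* (0.42). These moves turned on single libraries: that of *Il1a* was -0.41 without IL-4 2 and -0.12 without IL-4 3, and that of *Il1b* was 0.14 without library e.

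Against the decoy the picture differed. The ratio of *Il1a* to *Il1r2* was 1.72, 1.30 and 0.98 in unstimulated cells, 1.55, 1.83 and 2.64 with E. coli, -1.08, -1.54 and -1.56 with IFN-γ, and 1.18, 1.53 and 1.43 with both. Cells with IFN-γ alone lay below all others, by -2.73 from unstimulated cells, while E. coli (0.68, or 0.36 without E. coli 3) and both (0.05, or -0.13 without c to 0.24 without a) overlapped them. The ratio of *Il1b* to *Il1r2* was 2.34, 1.15 and 0.69 in unstimulated cells, 2.15, 2.27 and 3.23 with E. coli, -0.78, -1.58 and -1.94 with IFN-γ, and 1.90, 2.28 and 2.20 with both. It moved in the same way, by -2.83 with IFN-γ, and by 1.16 with E. coli and 0.73 with both (1.21 without a, 0.38 without c), which overlapped unstimulated cells. With IL-4 the ratio of *Il1a* to *Il1r2* was lower by -0.43, without overlap (-0.23 without IL-4 3), and that of *Il1b* overlapped, at 0.26 (0.0206 without e, 0.39 without f).

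The ratio of *Il18* to *Il18bp* was -2.15, -2.69 and -2.25 in unstimulated cells, -1.43, -2.03 and -1.12 with E. coli, -4.39, -4.71 and -4.78 with IFN-γ, and -5.01, -4.25 and -3.91 with both. No stimulated group overlapped the unstimulated libraries: the ratio was higher by 0.84 with E. coli and lower by -2.26 with IFN-γ and by -2.03 with both. It was also lower by -0.54 with IL-4, at -3.05, -3.09 and -3.08 against -2.40, -2.82 and -2.39. The ratio of *Il33* to its receptor *Il1rl1*, whose counts do not separate membrane and decoy forms, moved by 1.15 with IL-4. It was -7.31, -7.37 and -6.93 against -8.24, -8.54 and -8.28, without overlap. None of *Il18*, *Il18bp*, *Il33* and *Il1rl1* was itself called with IL-4. In the first set the ratio of *Il33* to *Il1rl1* depends on the prior count, and a ratio of *Il1r1* to *Il1r2* depends on it in both sets, so neither is read.

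**Figure D3:**
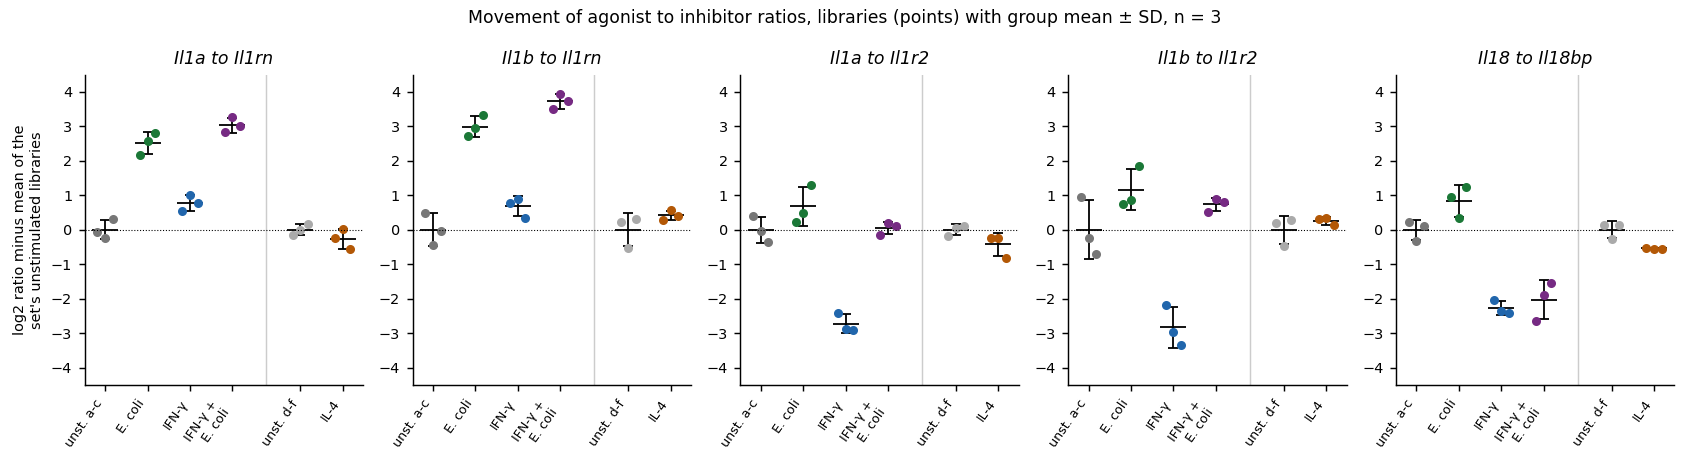
Each point is the log2 ratio of an agonist to an inhibitor in 1 library, minus the mean of the unstimulated libraries of its set, with the mean and SD of each group (n = 3). Ratios to *Il1rn* rise with E. coli and with both stimuli, ratios to *Il1r2* move by -2.73 and -2.83 with IFN-γ alone, and the ratio of *Il18* to *Il18bp* falls wherever IFN-γ was present.

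Other genes of the pathway were followed in 5 lists. Their counts of calls are to be read beside the 30.2%, 31.6%, 49.0% and 10.3% of all genes called with E. coli, IFN-γ, both and IL-4. Of 5 further family ligands, 2 were tested in the first set. *Il1f6*, which encodes IL-36α, averaged 1.06 CPM in unstimulated cells a to c and 15.45 CPM with E. coli. With IFN-γ it averaged 1.83 CPM and with both 10.4 CPM. *Il1f9*, which encodes IL-36γ, averaged 0.983, 9.72, 2.86 and 6.79 CPM in the same groups. In unstimulated cells they were near the floor, so both could enter the test only by being higher in a stimulated group. No p is therefore given for them, and none of the 5 was tested in the IL-4 set. Of 6 further receptors 1 was tested, *Il18rap*, the accessory chain of the IL-18 receptor, which had a mean of 19.5 ± 1.38 CPM in unstimulated cells and 55.5 ± 8.91 CPM with both (SD, n = 3). It was called higher under each stimulus of the first set, alone or together (with both 1.51, SE 0.207, adjusted p 7.97e-06). In the IL-4 set 2 of the 6 were tested, and neither was called.

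Of the genes for inflammasomes and cytokine processing, 13 of 14 were tested in the first set and moved in both directions. With E. coli 2 were higher and 5 lower (median -0.17), with IFN-γ 4 and 4 (median 0.18), and with both 3 and 5 (median -0.06). *Nlrp3*, the sensor of the best known inflammasome, rose by 2.98 (SE 0.359, adjusted p 1.56e-06) with both, and *Casp1*, the protease that matures IL-1β and IL-18, by 1.26 (SE 0.115, adjusted p 4.73e-08). *Casp4* rose by 1.21 (SE 0.123, adjusted p 1.83e-07). *Pycard*, the adaptor between sensor and caspase, changed by -1.01 (SE 0.195, adjusted p 2.98e-04), *Nlrp12* by -2.57 (SE 0.190, adjusted p 2.46e-09), *Nlrp1b* by -1.89 (SE 0.463, adjusted p 0.00237) and *Capn2* by -0.66 (SE 0.117, adjusted p 1.24e-04). With IL-4, 4 of 14 were higher and 1 lower (median 0.34), and *Nlrp12* (1.28, SE 0.197, adjusted p 0.00277) and *Pycard* (0.89, SE 0.158, adjusted p 0.00564) moved opposite to their change with both. *Naip5* (0.89, SE 0.131, adjusted p 0.00223) and *Casp4* (0.78, SE 0.163, adjusted p 0.0138) also rose with IL-4, and *Capn2* changed by -0.51 (SE 0.128, adjusted p 0.0315). *Naip5* and *Nlrp1b* have near paralogs, so reads may be shared with them, and exons of *Pycard*, *Nlrp12* and *Capn2* overlap genes on the opposite strand.

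For signalling close to the receptor, 17 of 18 genes were tested. With E. coli 4 were higher and 0 lower (median 0.27; 5 with ceiling-corrected counts, *Myd88* joining), with IFN-γ 7 and 2 (median 0.34; 8 corrected, *Chuk* joining), with both 11 and 2 (median 0.47), and with IL-4 0 and 1 (median -0.07). *Irak3*, an inhibitory kinase-like member of the receptor complex, rose most with both, by 3.16 (SE 0.118, adjusted p 4.92e-13). *Traf6* rose by 1.00 (SE 0.185, adjusted p 1.90e-04), *Ikbkg* by 0.97 (SE 0.125, adjusted p 3.88e-06) and *Peli1* by 0.91 (SE 0.141, adjusted p 3.38e-05). *Ecsit* changed by -1.08 (SE 0.253, adjusted p 0.00160) and *Irak4* by -0.82 (SE 0.170, adjusted p 5.58e-04). *Myd88* and *Chuk* are named after their values were seen. The gene lower with IL-4 was *Ikbkg*, at -1.09 (SE 0.211, adjusted p 0.00883). Exons of *Myd88*, *Irak3*, *Irak4*, *Ecsit* and *Ikbkg* overlap genes on the opposite strand.

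Among known targets and feedback genes of IL-1 signalling, all 16 were tested in the first set. With E. coli 12 were higher and 1 lower (median 1.36), with IFN-γ 10 and 1 (median 0.65), and with both 14 and 0 (median 1.93). *Ptgs2* averaged 31.6 CPM in unstimulated cells and 1049 CPM with both, a change of 5.01 (SE 0.208, adjusted p 1.05e-12). *Il6* averaged 19.9 and 491 CPM, a change of 4.62 (SE 0.199, adjusted p 1.63e-12). The chemokine genes *Cxcl1* and *Cxcl2* changed by 3.40 (SE 0.240, adjusted p 1.32e-09) and 3.30 (SE 0.176, adjusted p 2.72e-11). With IL-4, 6 of 15 were higher and 0 lower (median -0.01): *Il6* by 2.24 (SE 0.173, adjusted p 7.66e-05), *Socs3* by 1.32 (SE 0.133, adjusted p 2.37e-04), *Ptgs2* by 1.04 (SE 0.188, adjusted p 0.00614) and *Nfkbia* by 1.02 (SE 0.197, adjusted p 0.00911) are the ones with the largest change. Whether IL-1 had a part in their change was not tested.

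The genes whose pattern over the 12 libraries was most like each member were ranked by Pearson's r of log2 CPM among 9882 other genes tested. These libraries share 4 groups, so r describes mostly the differences between groups, and no p is given. Nearest to *Il1a* were *Il6* (r 0.988), *Il1b* (0.986) and *Irak3* (0.986), and nearest to *Il1b* were *Ccl4* (0.986), *Il1a* (0.986) and *Syt7* (0.985). *Il1a* and *Il1b* thus stood among each other's nearest genes. Nearest to *Il33* were *Esd* (0.986), *Ube2k* (0.984) and *Ptgs2* (0.982). Nearest to *Il18bp* were *Irf1* (0.996), *Dcaf12* (0.995) and *Tap1* (0.992), among them 2 genes known to respond to IFN-γ.

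Nearest to *Il1r2* were *Ero1l* (0.984), *Gfod1* (0.980) and *Egln3* (0.980). For *Il1rn* they were *Serpinb2* (0.975), *Rap1b* (0.974) and *Prkar1a* (0.956). *Il1rap* had *Apobr* (0.967), *Atic* (0.963) and *Fndc5* (0.961) nearest. *Il1rl1* had *F2r* (0.924), *Dnajc3* (0.918) and *Rasgrp4* (0.916), and *Il18* had *Urgcp* (0.948), *Crybg3* (0.887) and *Dse* (0.867). No other member of the family was among the nearest genes of an inhibitor or a receptor.

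On the GRCm38 build, 3 members lie on the plus strand of chromosome 1, in this order: *Il1r2* at chr1:40074079-40125231, *Il1r1* at chr1:40225080-40317257 and *Il1rl1* at chr1:40429570-40465415. Genes between them were not listed. With E. coli *Il1r2* and *Il1rl1* were both called higher, the latter a call lost in several alternatives. With IFN-γ, with both and with IL-4 *Il1r2* was called higher and *Il1rl1* was not called. Under library totals alone *Il1rl1* was called lower with IFN-γ and with both. *Il1r1* was at or near the floor, so no movement can be read for it. *Il1a* (chr2:129299610-129309972) and *Il1b* (chr2:129364570-129371139) are neighbours on the minus strand of chromosome 2, and *Il1rn* (chr2:24336853-24351494) lies on the plus strand of the same chromosome. *Il18bp* is at chr7:102014885-102018690 (minus), *Il18* at chr9:50554827-50581840 (plus), *Il1rap* at chr16:26581704-26730117 (plus) and *Il33* at chr19:29925114-29960718 (plus). Exons of *Il1a* overlap *Gm14023*, with at most 75 counts in a library, and exons of *Il1b* overlap *Il1bos*, with at most 8, both on the opposite strand.

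Promoter windows of 250 bases before to 50 after a transcript start were read from RefSeq on GRCm38.p6, where all 10 members matched by symbol. They are shown for *Il1a* and *Il1b*, which rose together, and for the inhibitors *Il18bp*, *Il1r2* and *Il1rn*. Searched on both strands were GGGNNNNNCC, a loose form of the NF-κB motif, and TTCNNNNGAA, the spacing preferred by STAT6. Of all 32851 windows, 50.8% hold the first and 6.95% the second. Capitals mark matches, which are a description of letters and not of binding. The windows of *Il1a* (chr2:129309923-129310222, minus), *Il1b* (chr2:129371090-129371389, minus), *Il18bp* (chr7:102018183-102018482, minus) and *Il1r2* (chr1:40085843-40086142, plus) hold none. That of *Il1rn* shown (chr2:24345041-24345340, plus) holds 1 each of GGGNNNNNCC and TTCNNNNGAA.
Il1a: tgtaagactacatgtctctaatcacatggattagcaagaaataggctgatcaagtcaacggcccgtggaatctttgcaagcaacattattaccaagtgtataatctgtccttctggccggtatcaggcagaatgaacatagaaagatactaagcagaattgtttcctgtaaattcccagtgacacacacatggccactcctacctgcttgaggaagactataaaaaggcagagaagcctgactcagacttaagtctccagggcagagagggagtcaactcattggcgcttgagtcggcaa
Il1b: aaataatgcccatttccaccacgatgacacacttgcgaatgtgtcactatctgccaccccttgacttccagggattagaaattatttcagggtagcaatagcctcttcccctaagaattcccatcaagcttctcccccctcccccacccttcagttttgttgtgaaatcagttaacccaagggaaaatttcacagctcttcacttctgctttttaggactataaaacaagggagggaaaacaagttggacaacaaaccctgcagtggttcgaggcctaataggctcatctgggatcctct
Il18bp: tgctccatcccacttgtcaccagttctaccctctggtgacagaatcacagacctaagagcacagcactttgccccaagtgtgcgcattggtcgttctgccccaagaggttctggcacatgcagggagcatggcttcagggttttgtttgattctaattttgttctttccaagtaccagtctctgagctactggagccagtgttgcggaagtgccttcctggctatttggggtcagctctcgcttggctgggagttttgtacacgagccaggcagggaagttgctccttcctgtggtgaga
Il1r2: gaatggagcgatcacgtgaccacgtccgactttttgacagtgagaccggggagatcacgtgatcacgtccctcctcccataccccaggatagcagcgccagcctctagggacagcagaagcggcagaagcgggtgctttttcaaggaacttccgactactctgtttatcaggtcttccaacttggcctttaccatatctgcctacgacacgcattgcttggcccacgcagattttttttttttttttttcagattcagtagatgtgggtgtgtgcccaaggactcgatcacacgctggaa
Il1rn: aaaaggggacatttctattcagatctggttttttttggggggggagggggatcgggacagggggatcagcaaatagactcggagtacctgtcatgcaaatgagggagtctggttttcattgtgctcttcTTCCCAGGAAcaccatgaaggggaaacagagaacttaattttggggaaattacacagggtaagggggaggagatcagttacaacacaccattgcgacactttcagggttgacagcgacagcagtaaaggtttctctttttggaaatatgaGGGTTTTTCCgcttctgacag

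Among the windows not printed, that of *Il1rap* held 6 matches to GGGNNNNNCC, those of *Il18* and of 1 of the 2 *Il33* starts held 1 match to TTCNNNNGAA, and both windows of *Il1rl1* held none. A further *Il1rn* window overlaps the one shown and holds the same matches, and another held 2 matches to GGGNNNNNCC. Of the 2 *Il1r1* windows, 1 held a match to GGGNNNNNCC.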

How the data were processed

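The deposited values are counts per Ensembl gene that the authors made; the methods describe CEL-Seq2 libraries of 2 ng RNA, the labels name an RNA-seq experiment too, and neither assigns a set. The methods name TopHat2 2.1.0, HTSeq 0.6.1, fastp 0.20.1 and STAR 2.7.2a. Which set each aligner served, and whether molecular identifiers were collapsed, is not stated. In the first set, of 12 libraries, 21.1% to 39.4% of counts were assigned to no single gene (no feature or ambiguous), and the IL-4 set lists no such counts. Symbols were matched for 98.4% and 99.9% of genes.

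Genes kept by filterByExpr (9883 in the first set, 10556 in the IL-4 set, 10671 over all 18 libraries) were fitted in R 4.3.3 with edgeR 4.0.16 (TMM, quasi-likelihood test, Benjamini-Hochberg). The 18-library fit served the comparisons of responses, with separate unstimulated groups. Alternatives were DESeq2 1.42.0, its size factors in edgeR, library totals alone, no filter or at least 10 counts in 3 libraries, a factor of 2, only the groups compared, replicate number as a block, a prior count of 0.5, each library left out, and counts corrected for the ceiling.

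All members are named. Of each pathway list, up to 4 called genes per direction with the largest change in IFN-γ + E. coli or in IL-4 are named, and for each member the 3 genes nearest in pattern. The members and lists were chosen with earlier results of these data known.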

Additional observations from a re-analysis of the deposited data

Results flagged for a closer look

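*Il1r2*, the decoy receptor for IL-1, differed in its effect of E. coli between cells without and with IFN-γ: the interaction was -2.29 on the log2 scale (SE 0.331, adjusted p 5.11e-04 by edgeR's quasi-likelihood test). E. coli raised it by 2.102 in cells without IFN-γ, and cells with both did not differ from IFN-γ alone beyond their spread, at -0.19 (adjusted p 0.617). What lies behind this was not tested.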

How the results depend on the processing

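Of 2086 values of single members under the alternatives, 1979 kept their direction and their side of the threshold, 41 lost a call, 17 gained one and 49 changed sign. Of the 41, 11 were lost by requiring a factor of 2. None of the 49 belonged to a change called with the main settings, and 1 of them, *Il1rn* in E. coli against IFN-γ with ceiling-corrected counts, was called after its sign change (0.46, adjusted p 0.0119). Their causes were not tested.

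Counts of members called moved by more than 1.5 times in 3 cases with all libraries kept. With a factor of 2 required, 5 members differed between both stimuli and E. coli, and 1 between IL-4 and unstimulated cells; with no filter the interaction was called for 2. Leaving out 1 library gave 5 to 7 members with E. coli, 6 to 7 with IFN-γ, 7 with both, 1 to 2 for the interaction (2 without E. coli 2 or without IFN-γ + E. coli 1) and 2 to 4 with IL-4.

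Sign changes by setting follow, as log2 values. DESeq2 gave 0.027 for *Il18* with E. coli. No filter gave 0.0225 for the same and -0.0084 for the interaction of *Il1rn*. A fit of the compared groups alone gave 0.0030 for *Il18* with E. coli. Library totals alone gave -0.0608 for *Il18* with IFN-γ, 0.0134 for *Il18* and 0.0889 for *Il1rn* in E. coli against IFN-γ, 0.0847 for *Il1b* and 0.0206 for *Il1rl1* in the IL-4 against the IFN-γ response, and 0.0068 for *Il1rn* and 0.14 for *Il1rl1* in the IL-4 against the combined response. Ceiling-corrected counts gave *Il1rn*, beside the 0.46 above, -0.26 for the interaction and -0.45 in the IL-4 against the E. coli response.

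Leaving out 1 library also crossed 0 for changes that were not called, over these ranges. *Il18* ran from -0.33 to 0.25 with E. coli, -0.0151 to 0.26 with IFN-γ, -0.12 to 0.62 with both, -0.27 to 0.47 in both against IFN-γ, -0.12 to 0.62 in both against E. coli, -0.45 to 0.12 in E. coli against IFN-γ, -0.26 to 0.50 for the interaction and -0.51 to 0.0584 in the IL-4 against the E. coli response. *Il1rn* ran from -0.19 to 0.0446 in E. coli against IFN-γ, -0.0553 to 0.18 for the interaction, and -0.0050 to 0.26 and -0.0663 to 0.19 in the IL-4 against the E. coli and IFN-γ responses. In both against IFN-γ, *Il1rap* ran from -0.19 to 0.0667 and *Il1rl1* from -0.12 to 0.0207. *Il33* ran from -0.22 to 0.67 in E. coli against IFN-γ, and the interaction from -0.41 to 0.0693 for *Il1a* and -0.11 to 0.44 for *Il1b*.

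Library totals alone moved the median of all genes by -0.21 with IFN-γ, -0.29 with both, -0.25 in both against E. coli, 0.17 in E. coli against IFN-γ, and 0.14, 0.29 and 0.38 in the IL-4 response against those to E. coli, IFN-γ and both. The genes called higher and lower went from 1541 and 1579 to 970 and 2448 with IFN-γ, from 2358 and 2486 to 1536 and 3676 with both, from 618 and 591 to 443 and 815 in both against IFN-γ, from 1725 and 1515 to 1097 and 2859 in both against E. coli, from 1132 and 1393 to 1937 and 1062 in E. coli against IFN-γ, from 1392 and 1572 to 2252 and 916 in the IL-4 against the IFN-γ response, and from 1974 and 2210 to 3177 and 1252 against the combined one.

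Over all genes, the count called moved by more than 1.5 times with a factor of 2 required, to 1023 from 2986 with E. coli, 1187 from 3120 with IFN-γ, 2210 from 4844 with both and 478 from 1089 with IL-4. With no filter 1634 genes were called with IL-4. Without IFN-γ 1 or IFN-γ + E. coli 2, 740 or 773 genes differed between both and IFN-γ, in place of 1209. The interaction, called for 457 genes, was called for 266 without unstimulated a, 286 and 270 without E. coli 1 and 2, and 294 without IFN-γ + E. coli 2. With IL-4 the count was 483, 495 and 515 without IL-4 1, 2 and 3.

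Libraries of the same number did not pair, with correlations of their residuals from -0.045 to 0.331, and not every library was nearest to its own number. With a replicate block, 1418 genes and 4 members differed between both stimuli and IFN-γ (*Il1rn* joining, at 0.35, adjusted p 0.00899), 3142 genes and 8 members between both and E. coli, and 2637 genes and 6 members between E. coli and IFN-γ.

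Of the ratios read, that of *Il1a* to *Il1rn* with E. coli moved by over 1 SD pooled over its 2 groups, to 2.09 with ceiling-corrected counts. By the SD of the stimulated group alone, under the same correction, *Il1b* to *Il1rn* with E. coli (2.65) and *Il1b* to *Il1r2* with both (1.04) did so too. Depth limits *Il1r1* in both sets and *Il33* in unstimulated cells a to c, and 3 libraries a group limit every adjusted p.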
